A study of Papio anubis with 588 samples.

Results

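Gene expression in adipose tissue and in skeletal muscle was compared within 96 captive baboons (Papio anubis) on their baseline diet. The members are the adipose and muscle libraries taken at 0 years from animals that have both in the table the authors kept after quality control: 192 of its 570 libraries, 96 of each tissue. The 3 other adipose libraries of that time had no muscle partner and were not used. All 96 animals were eating the LCLF diet (low in cholesterol and fat) when both biopsies were taken, before the study moved them to a rich one, and no library from after that change enters any value given here. Each animal gave 1 adipose and 1 muscle library from total RNA of frozen biopsies, so animals are the replicates and every difference is taken within an animal. The labels used here give neither the fat depot nor the muscle, and neither age nor sex, and both biopsies are pieces of whole tissue that hold many cell types. Each animal's tissues shared RNA extraction, library preparation and sequencing, which were done in 2 batches with different kits (single-end reads in batch 1, paired-end in batch 2).

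White adipose tissue stores fat as triglyceride in adipocytes, which take up fatty acids and make new ones, release them again by lipolysis and secrete hormones such as leptin and adiponectin. Skeletal muscle consists mainly of long multinucleated myofibres, in which myosin and actin filaments slide past each other when calcium is released from internal stores, and which burn glucose, glycogen and fatty acids to pay for it. Both tissues also hold vessels, connective tissue, nerves and immune cells, and many of their proteins exist as paired forms encoded by related genes, of which one is typical of muscle.

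Library totals were 6506614 to 31094145 counts in adipose (median 18229621) and 7191403 to 36835097 counts in muscle (median 18869414). Levels are CPM, counts relative to the library total after scaling by the trimmed mean of M-values (TMM). Differences are log2 values of adipose minus muscle with an approximate standard error (SE). That SE is the size of the difference divided by the square root of the F statistic of edgeR's quasi-likelihood test, blocked by animal. It does not measure the spread between animals. A gene was called when the adjusted p of that test was at most 0.05 and the difference at least 1 on the log2 scale. Of 16101 genes tested, 5421 (33.7%) were higher in adipose, 3731 (23.2%) were higher in muscle, and either call covers 56.8%. The adjusted p alone was passed by 94.1% of genes, so with 96 animals the size of a difference says more than its p. In 889 genes (5.52%) the lowest adipose library lay above the highest muscle library, and in 1281 genes (7.96%) the lowest muscle library lay above the highest adipose library. The 10 most abundant genes took 3.8% to 11.2% of the counts of an adipose library and 20.3% to 32.9% of a muscle one. With total counts alone in place of TMM, the median difference over all genes moved up by 1.58 on the log2 scale and the calls split into 10943 genes higher in adipose and 1115 higher in muscle, so muscle calls smaller than that amount turn round. Of 801 distinct genes in 54 lists of pathways, cell types and gene families 703 were tested. A gene made by one tissue alone passes the low-count filter through that tissue, so counts over tested members are descriptions, to be read against the 33.7% and 23.2% over all genes. In bulk tissue, fewer cells of a type and less RNA per cell cannot be told apart.

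The tissue labels held against defining markers. The summed adipocyte markers took a median of 1.93% of counts in adipose (0.417% to 4.2%) and 0.143% in muscle (0.0691% to 0.229%), and the summed myofibre markers 0.0432% in adipose (0.018% to 1.98%) and 19.9% in muscle (11.5% to 24.2%). The adipose library of animal 16741 held the highest myofibre share, 1.98%, which is 45.9 times the median of adipose libraries, and the muscle library of animal 17190 held 0.418% hepatocyte markers, 691 times the median of muscle libraries. Leaving out these animals and animal 17199, the next highest in hepatocyte share, gave 5456 genes higher in adipose and 3754 higher in muscle.

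**Figure D1:**
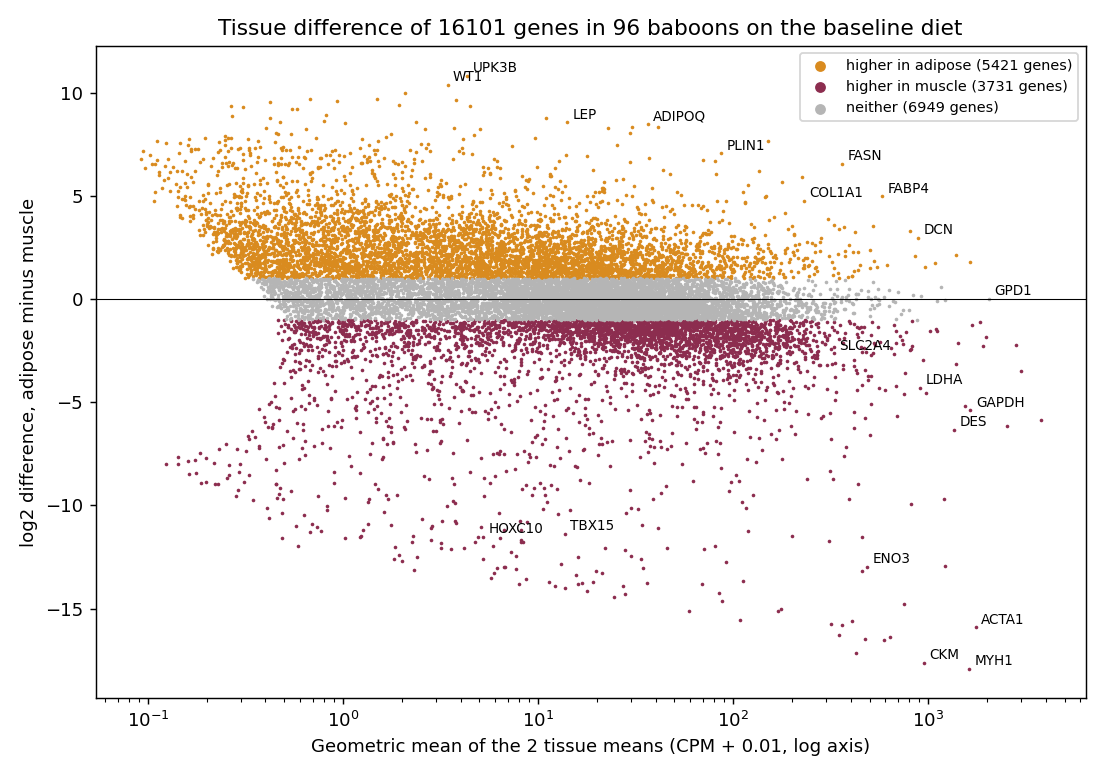
Each point is 1 of 16101 genes, with the geometric mean of its mean CPM in the 2 tissues on a log axis and its log2 difference (adipose minus muscle) on the vertical axis, coloured by call. The differences reach further on the muscle side, to -17.90 for MYH1, than on the adipose side, where UPK3B is at 10.82.

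The largest differences belonged to the contractile apparatus of the myofibre, much of which was close to undetected in the median adipose library. All 20 myofibre markers tested were higher in muscle, with a median difference of -12.43 and no overlap between the libraries of the tissues for any of the 20. The gene with the widest difference was MYH1, a fast myosin heavy chain, with 0 to 3050 CPM (median 0.127) in adipose libraries and 24807 to 141843 CPM (median 71566) in muscle libraries. Its difference was -17.90 ± 0.50 (edgeR, adjusted p = 8.27e-58). CKM, the muscle creatine kinase that buffers ATP, had 0 to 1455 CPM (median 0.0827) in adipose and 21281 to 80159 CPM (median 52898) in muscle. ACTA1, the actin of the thin filament, had 0.0733 to 2372 CPM (median 0.988) in adipose and 29134 to 201665 CPM (median 98066) in muscle, a difference of -15.90 ± 0.40. For each of these genes the highest adipose library was that of animal 16741, and every adipose library lay below every muscle library. NEB, the giant ruler protein of the thin filament, had medians of 0.118 CPM in adipose and 15499 CPM in muscle, and MB, the oxygen store myoglobin, had medians of 0.156 CPM in adipose and 30363 CPM in muscle. The remaining leaders were MYL1, MYH2, MYBPC1, MYBPC2, MYLPF, NRAP and MYOT, whose differences ran from -17.12 for MYL1 to -15.11 for MYOT.

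All fast and slow fibre genes tested lay on the muscle side: 14 of 14 fast fibre genes and 10 of 10 slow fibre genes were higher in muscle, with medians of -13.89 and -8.39. MYH7, also listed as a slow fibre gene, is absent from the deposited counts. MYL2, the slow regulatory light chain, had 0 to 90.7 CPM (median 0.161) in adipose and 741 to 16906 CPM (median 4590) in muscle. TNNI1 and TNNC1, the inhibitory and calcium-binding troponins of slow fibres, differed by -11.98 ± 0.20 and -9.48 ± 0.12. The tropomyosin gene TPM3, whose products also serve non-muscle cells, kept a median of 117 CPM in adipose and 1824 CPM in muscle and a difference of -3.91 ± 0.09. PVALB, the calcium buffer of fast fibres, stayed at 0 to 1.83 CPM (median 0.066) in adipose and varied widely among animals in muscle, at 1.08 to 787 CPM (median 37.4).

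The machinery that turns a nerve impulse into calcium release followed the fibres, whereas the nerve contact itself was mixed. Of 16 excitation-contraction coupling genes 14 were higher in muscle (median -8.02) and all 14 showed no overlap. RYR1 and TRDN, also listed, are absent from the deposited counts. CACNA1S, the voltage sensor of the transverse tubule, had 0 to 36.6 CPM (median 0) in adipose and 575 to 2254 CPM (median 1264) in muscle, a difference of -14.41 ± 0.27. SLN, a small regulator of the calcium pump, differed by -15.10 ± 0.38, and JSRP1, a protein of the junctional membrane, by -12.27 ± 0.19. The 2 members without a call were FKBP1A, the calcium-release-channel binding protein that most cells make, at 0.30 ± 0.04, and ASPH at -0.35 ± 0.07. Of 9 neuromuscular junction genes 2 were higher in adipose and 6 in muscle. The muscle genes include the acetylcholine receptor subunit gene CHRNB1 (-9.02 ± 0.20), RAPSN, which clusters the receptor (-6.49 ± 0.09), and ACHE, which degrades acetylcholine (-6.04 ± 0.15). Those higher in adipose were AGRN, a basement membrane proteoglycan, at 2.05 ± 0.07, and COLQ, the collagen tail of acetylcholinesterase, at 1.22 ± 0.10. CHRNE, the adult subunit of the receptor, stood at -0.01 ± 0.30 with medians of 0.686 CPM in adipose and 0.346 CPM in muscle.

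Of 16 genes of the dystrophin complex and of membrane repair, 14 were higher in muscle (median -3.50). The largest differences were those of CAVIN4 (-10.87 ± 0.18) and CAV3 (-7.04 ± 0.17), both of the muscle cell's caveolae, ANO5, a membrane repair protein (-7.35 ± 0.13), and SGCA, a sarcoglycan (-6.93 ± 0.12). LAMA2, the laminin chain that the complex binds, had 8.75 to 78 CPM (median 33.9) in adipose and 30.6 to 132 CPM (median 56.9) in muscle, and its difference of -0.71 ± 0.07 was too small for a call. Among myogenic factors 14 of 14 were higher in muscle, with a median of -7.59. MYOD1 and MYOG, which drive myoblast commitment and differentiation, had at most 3.33 and 3.83 CPM in any adipose library, against 5.15 to 99.3 CPM (median 29.5) and 55.5 to 254 CPM (median 122) in muscle. EYA4, a coactivator of the list, differed by -10.77 ± 0.16. The MEF2 factors, which many cell types use, differed less, with MEF2C at -4.54 ± 0.06 and MEF2A at -1.53 ± 0.03, a value that total-count scaling turned to 0.05. MSTN, the inhibitor of muscle growth myostatin, had 0 to 0.916 CPM (median 0.0313) in adipose and 0.336 to 24.7 CPM (median 10) in muscle.

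**Figure D2:**
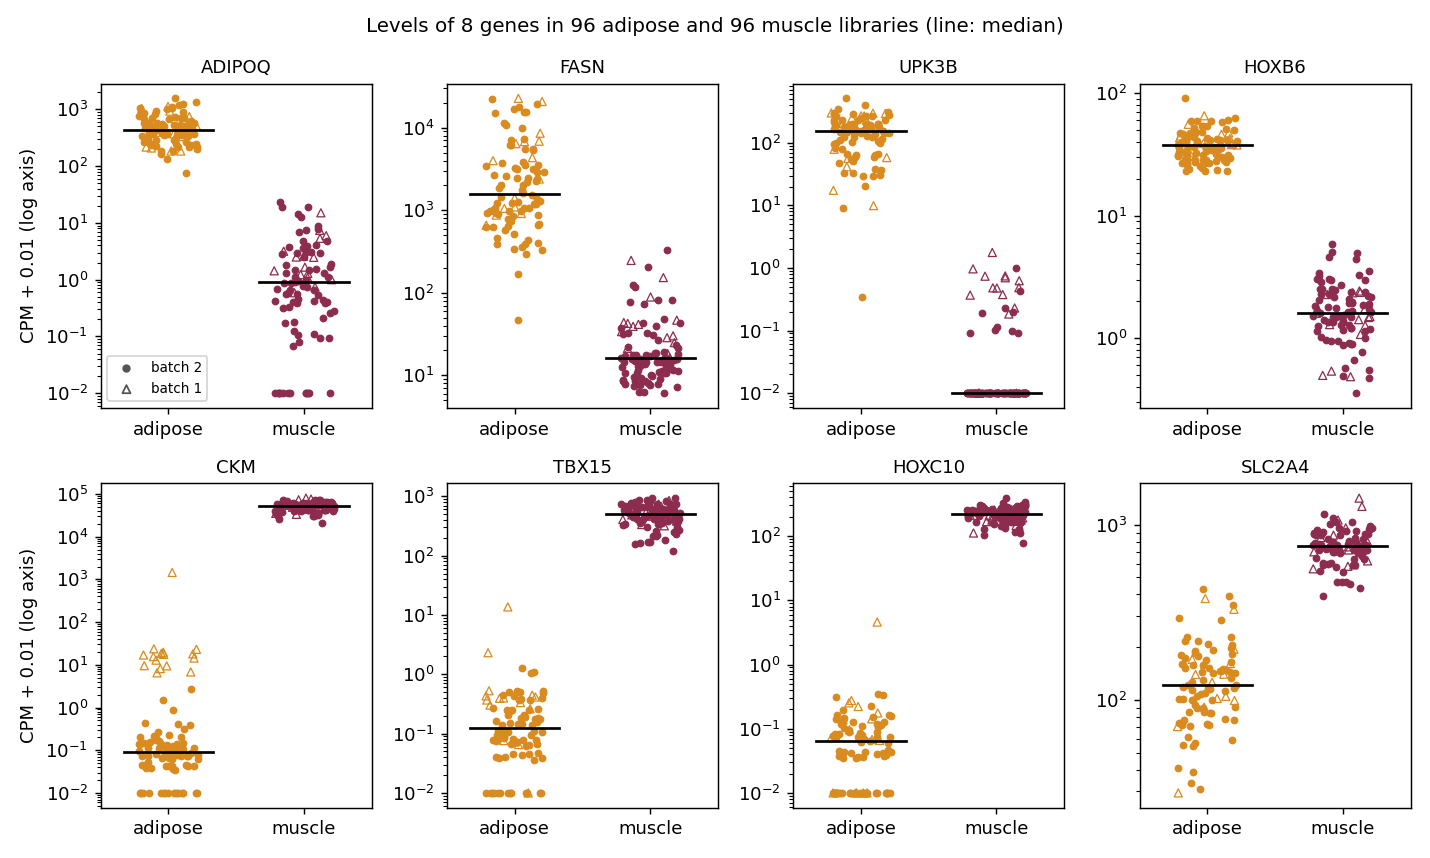
Level of 8 genes in every library (CPM + 0.01 on a log axis), adipose left and muscle right in each panel, with filled circles for batch 2, open triangles for batch 1 and a line at the median. ADIPOQ, UPK3B, HOXB6, CKM, TBX15 and HOXC10 separate the tissues by an order of magnitude or more at the median, the adipose spread of FASN runs from 46.8 to 22662 CPM (median 1558), and the triangles of CKM in adipose lie above the circles.

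Adipocyte genes formed the counterpart on the adipose side, with smaller differences. Of 17 adipocyte markers 16 were higher in adipose, the median difference was 5.96, and 9 showed no overlap. ADIPOQ, which encodes the hormone adiponectin, had 74.3 to 1565 CPM (median 441) in adipose libraries and 0 to 23.6 CPM (median 0.905) in muscle libraries, a difference of 8.47 ± 0.26 (edgeR, adjusted p = 1.13e-54). LEP, which encodes the satiety hormone leptin, had 1.55 to 1792 CPM (median 173) in adipose and 0 to 14 CPM (median 0.233) in muscle. The LEP ranges overlapped because the lowest adipose library was under the highest muscle library, and adipose was higher in 95 of 96 animals. TRARG1, a partner of the insulin-regulated glucose transporter, had 46.3 to 986 CPM (median 417) in adipose and 0 to 26.3 CPM (median 0.83) in muscle, and was higher in adipose in 96 of 96 animals. FABP4, the fatty acid carrier of adipocytes, was abundant in adipose at 805 to 6832 CPM (median 3141) and measurable in every muscle library at 42.8 to 230 CPM (median 93.1). The exception among these markers was GPD1, which makes the glycerol backbone of triglyceride, with 305, 1908 and 5144 CPM in adipose and 717, 1951 and 3233 CPM in muscle (lowest, median and highest). Its difference was -0.00151 ± 0.09 (edgeR, adjusted p = 0.987), and adipose was higher in 50 of 96 animals.

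Fat storage and its release were mostly higher in adipose. Of 17 genes of triglyceride synthesis and the lipid droplet 12 were higher in adipose and 2 in muscle (median 2.08). PLIN1, which coats the adipocyte droplet and controls access of lipases, had 176 to 2749 CPM (median 959) in adipose and 1.29 to 41.2 CPM (median 6.19) in muscle, without overlap. CIDEC and CIDEA, which promote droplet fusion, differed by 8.28 ± 0.21 and 8.03 ± 0.25. PLIN4 had 103 to 6905 CPM (median 1633) in adipose and 34.8 to 922 CPM (median 397) in muscle, with a difference of 2.08 ± 0.18 and overlapping ranges. The members higher in muscle were droplet proteins of muscle and other oxidative tissues, PLIN5 (-4.04 ± 0.15) and FITM1 (-6.74 ± 0.09). Of 15 lipolysis genes 11 were higher in adipose and none in muscle, with a median of 4.0. HCAR1, the receptor through which lactate restrains lipolysis, had 2.35 to 35.7 CPM (median 12.8) in adipose and 0 to 0.617 CPM (median 0.0589) in muscle. PDE3B, which mediates the antilipolytic effect of insulin, differed by 5.88 ± 0.15, and AQP7, the channel that lets glycerol out, by 2.35 ± 0.11. The lipase partners stayed close, with ABHD5, the activator of triglyceride lipase, at 0.09 ± 0.08, its inhibitor G0S2 at -0.04 ± 0.14 and MGLL, which cleaves monoglycerides, at -0.28 ± 0.07.

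Most genes that make fatty acids were higher in adipose. Of 16 fatty acid synthesis genes 12 were higher in adipose and 1 in muscle (median 2.11). FASN, the fatty acid synthase, had 46.8 to 22662 CPM (median 1558) in adipose and 6.07 to 331 CPM (median 16) in muscle, and was higher in adipose in 96 of 96 animals. SCD, which introduces the first double bond, had 2.06 to 10388 CPM (median 195) in adipose and 0 to 258 CPM (median 3.94) in muscle. Its difference of 5.17 ± 0.35 had the largest spread among animals of all genes with at least 10 CPM in both tissues, an SD of 3.02 against a median SD of 0.67 over all genes, and ran from -0.52 to 12.17. The elongase gene ELOVL6 had 1.08 to 2008 CPM (median 7.96) in adipose and 0 to 36.8 CPM (median 0.409) in muscle, and ELOVL5 differed by 4.51 ± 0.12. ME1, the malic enzyme that supplies NADPH, was the member higher in muscle, at -1.23 ± 0.16, with medians of 26.3 CPM in adipose and 82.2 CPM in muscle, but without the animal block it stood at -0.45 with no call, and total-count scaling turned it to 0.35. In the pentose phosphate list, TKT (4.55 ± 0.11) and PGD (2.94 ± 0.07) were among 4 of 9 genes higher in adipose, while NNT, the mitochondrial source of NADPH, was higher in muscle (-3.70 ± 0.13).

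Of 17 genes of lipoprotein uptake and fatty acid transport 12 were higher in adipose and 2 in muscle, with a median of 1.88. APOE, a lipoprotein component that macrophages and adipocytes secrete, had 354 to 3043 CPM (median 1025) in adipose and 2.29 to 275 CPM (median 22.1) in muscle. ANGPTL4, an inhibitor of lipoprotein lipase, differed by 5.16 ± 0.15. The members higher in muscle were FABP3, the fatty acid carrier of muscle (-5.83 ± 0.11), and VLDLR, a receptor for triglyceride-rich particles (-1.49 ± 0.10), which turned to 0.09 with total counts. Among 20 genes of cholesterol synthesis and LDL uptake 9 were higher in adipose, 2 in muscle and 9 neither, so this pathway divided less clearly. NSDHL, a late enzyme of the pathway, differed by 2.38 ± 0.09, while FDFT1, which makes squalene, was higher in muscle at -2.06 ± 0.06. SREBF2, the pathway's transcription factor, had medians of 111 CPM in adipose and 111 CPM in muscle and differed by 0.16 ± 0.06.

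Hormones released by the tissues divided by gene. Of 16 adipokine genes 11 were higher in adipose and 3 in muscle (median 3.28). ITLN1, which encodes omentin, had 0.169 to 1302 CPM (median 1.36) in adipose and 0 to 0.754 CPM (median 0) in muscle, so most adipose libraries held little of it and a few held much. GREM1, an inhibitor of bone morphogenetic proteins, differed by 7.19 ± 0.20. NAMPT (-2.25 ± 0.08) and NRG4 (-4.04 ± 0.09), which belong to the list because fat tissue is known to secrete them, were among the 3 higher in muscle. Of 12 myokine genes 7 were higher in adipose and 2 in muscle, with a median of 1.36, and they include general growth factors. IGF1 had 56.6 to 340 CPM (median 119) in adipose and 4.52 to 39.6 CPM (median 10.7) in muscle, and FSTL1 differed by 2.61 ± 0.06. FNDC5, the precursor of irisin, was higher in muscle (-4.12 ± 0.08), as was MSTN. Of 10 thermogenic genes 3 were higher in adipose and 2 in muscle, both near the shares over all genes. UCP1, the uncoupling protein of brown fat, was among 5 listed genes whose counts were too low to be tested, and UCP3, its muscle relative, had 0 to 8.33 CPM (median 0.202) in adipose and 42.3 to 1191 CPM (median 371) in muscle.

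**Figure D3:**
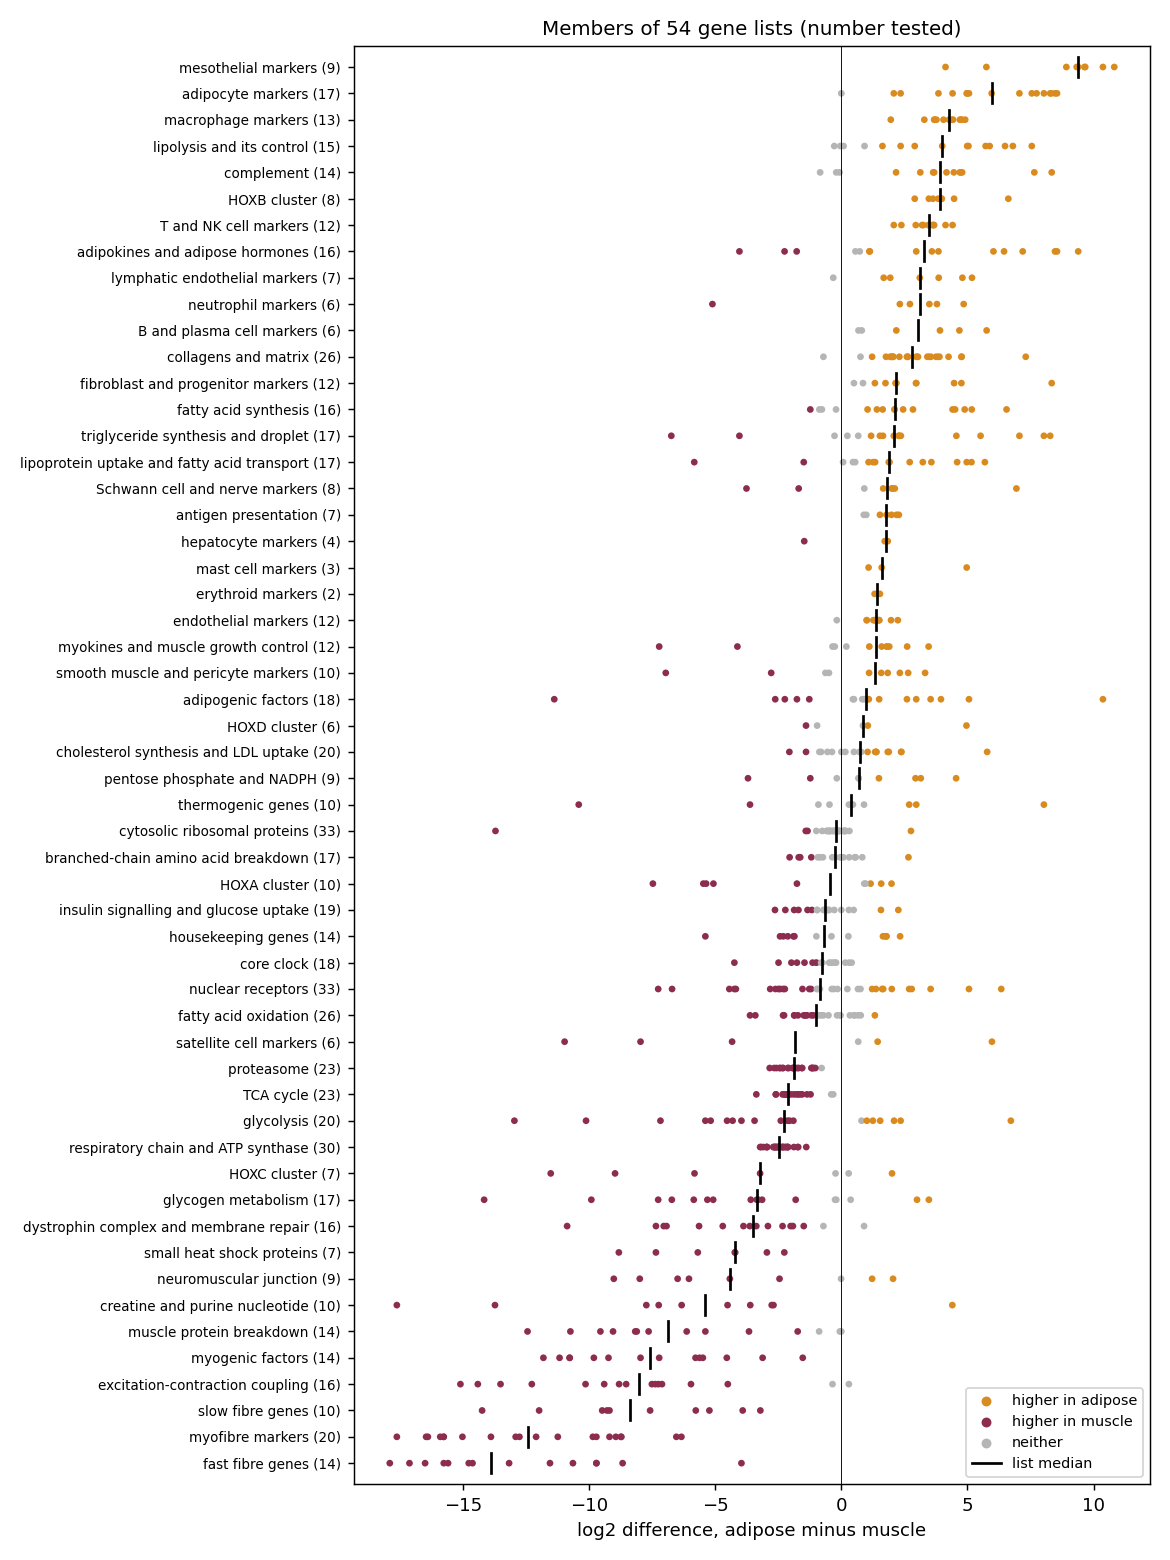
Each point is 1 tested member of a gene list (log2 difference, adipose minus muscle), coloured by call, with a black bar at the list's median and the number tested in brackets. Mesothelial and adipocyte markers lie furthest to the adipose side, with medians of 9.39 and 5.96, and myofibre markers and fast fibre genes furthest to the muscle side, with medians of -12.43 and -13.89.

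Mitochondrial energy metabolism was higher in muscle, by less than the contractile genes. All 30 genes of the respiratory chain and ATP synthase that were tested were higher in muscle, with a median of -2.46 and no overlap for 18, while total-count scaling left a median of -0.88 and 11 calls. COX5A, a subunit of cytochrome c oxidase, had 29 to 148 CPM (median 51.4) in adipose and 267 to 858 CPM (median 452) in muscle, a difference of -3.09 ± 0.07. ATP5MC1, of the rotor ring of ATP synthase, differed by -3.18 ± 0.05. The smallest difference was that of NDUFB8, at -1.39 ± 0.05, which total counts turned to 0.19. Of 23 tricarboxylic acid cycle genes none was higher in adipose and 21 were higher in muscle (median -2.12), against 2 and 3 calls and a median of -0.54 under total-count scaling. MDH2, mitochondrial malate dehydrogenase, had 62.5 to 301 CPM (median 99.8) in adipose and 235 to 2197 CPM (median 1243) in muscle, while FH, the fumarase gene, differed by -2.60 ± 0.05. SUCLG2 (-0.32 ± 0.08) and IDH3A (-0.40 ± 0.05) had no call. PPARGC1A, the coactivator of mitochondrial biogenesis, had 1.13 to 12.8 CPM (median 3.65) in adipose and 21.1 to 315 CPM (median 45) in muscle, without overlap.

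Fatty acid oxidation divided less than the cycle it feeds: 1 of 26 genes was higher in adipose, 13 in muscle and 12 neither, with a median of -1.0 that turned to 0.58 under total-count scaling. ACADM, the medium-chain dehydrogenase, had 23.2 to 177 CPM (median 60.1) in adipose and 22.5 to 569 CPM (median 334) in muscle. CPT1B, the muscle form of the enzyme that admits fatty acids to mitochondria, differed by -3.41 ± 0.10, and CPT1A, the liver form, was the member higher in adipose, at 1.33 ± 0.05. ACAA2, the last enzyme of each mitochondrial round, stood at -0.04 ± 0.10. Branched-chain amino acid breakdown moved little, with 1 of 17 genes higher in adipose, 4 in muscle and 12 neither, and a median of -0.24 that turned to 1.34 under total-count scaling. Its muscle count is near the share over all genes. The transaminase gene BCAT1 was higher in adipose (2.66 ± 0.09) and HIBADH, of valine breakdown, higher in muscle (-2.05 ± 0.07).

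Glucose and glycogen use was led by muscle forms of the enzymes. Of 20 glycolysis genes 6 were higher in adipose and 13 in muscle (median -2.27), and of 17 glycogen genes 2 were higher in adipose and 12 in muscle (median -3.35). The adipose count of the glycolysis list is near the share over all genes. Total-count scaling gave this list 7 calls in adipose, 9 in muscle and a median of -0.69. ENO3, the muscle enolase, had 0.545 to 800 CPM (median 2.34) in adipose and 9413 to 32235 CPM (median 20419) in muscle. PFKM, the muscle phosphofructokinase, had 17.4 to 187 CPM (median 29.1) in adipose and 848 to 7387 CPM (median 4930) in muscle, a difference of -7.17 ± 0.10. PGAM2 differed by -10.12 ± 0.17, PYGM, the muscle glycogen phosphorylase, by -9.91 ± 0.18, and PPP1R3A, which holds a phosphatase on glycogen, by -14.16 ± 0.23. On the adipose side ALDOC, an aldolase, had 93 to 2031 CPM (median 590) in adipose and 1.35 to 34.1 CPM (median 5.34) in muscle, without overlap. The other 5 were PGAM1 (2.35 ± 0.04), PFKP (2.09 ± 0.07), PFKL (1.54 ± 0.03), LDHB (1.25 ± 0.11) and ENO1 (1.01 ± 0.07). Of 10 creatine and purine nucleotide genes 1 was higher in adipose and 9 in muscle, led after CKM by AMPD1, which deaminates AMP (-13.73 ± 0.26), and AK1, an adenylate kinase (-7.73 ± 0.10).

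Insulin signalling genes divided little: 2 of 19 were higher in adipose, 6 in muscle and 11 neither, with a median of -0.65 that turned to 0.93 with total counts, and the muscle count is near the share over all genes. SLC2A4, the insulin-regulated glucose transporter GLUT4 that both tissues use, had 29.4, 121 and 431 CPM in adipose and 389, 751 and 1418 CPM in muscle (lowest, median and highest). Its difference was -2.63 ± 0.09, and muscle was higher in 96 of 96 animals although the ranges overlapped. SLC2A1, the general glucose transporter, was higher in adipose at 2.26 ± 0.15, and PIK3R1, a regulatory subunit of the kinase below the insulin receptor, at 1.57 ± 0.07. TBC1D1, which restrains transporter traffic in muscle, differed by -2.22 ± 0.08. FOXO1, which insulin shuts off, had medians of 47.6 CPM in adipose and 45.3 CPM in muscle and a difference of -0.00165 ± 0.09.

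In most pairs of related genes the muscle form and its partner differed between the tissues in opposite directions. Of 38 pairs of a muscle form and a related gene, called the other form here, 34 had both genes tested. In 25 of them the muscle form was higher in muscle and the other form higher in adipose, in 7 the muscle form was higher in muscle and the other form had no call, and in 33 the muscle form lay further to the muscle side. The forms were paired from textbook knowledge of which one is typical of muscle, so this direction is partly fixed by the choice. The translation factors EEF1A2 and EEF1A1 differed by -13.81 ± 0.24 and 3.28 ± 0.12 (they bring transfer RNA to the ribosome). RPL3L, the muscle substitute of a ribosomal protein, had 0 to 15.8 CPM (median 0) in adipose and 284 to 901 CPM (median 587) in muscle, while RPL3 itself had 164 to 1125 CPM (median 714) in adipose and 20.4 to 284 CPM (median 101) in muscle. MB and its relative CYGB, a globin of connective tissue cells, stood at -16.39 and 4.17 ± 0.07. The intermediate filament genes DES and VIM stood at -6.34 ± 0.15 and 3.52 ± 0.07, and the droplet coats PLIN5 and PLIN1 at -4.04 and 7.06. Caveolins CAV3 and CAV1 stood at -7.04 and 2.30 ± 0.05, and the ADP/ATP carriers SLC25A4 and SLC25A5 at -5.47 ± 0.06 and 2.23 ± 0.08. LDHA, the lactate dehydrogenase of glycolytic muscle, had 81.3 to 431 CPM (median 187) in adipose and 469 to 7866 CPM (median 4452) in muscle, and LDHB was higher in adipose. These differences compare the tissues, not the forms with each other. Within adipose, the mean CPM of LDHA (197) and SLC25A4 (61.7) exceeded those of LDHB (67.9) and SLC25A5 (22). By contrast DES (158) and CAV3 (1.04) lay below VIM (1723) and CAV1 (575) there.

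Pairs that departed from this pattern were few. The hexokinase pair ran the other way, with HK2, the form named for muscle, at 0.80 ± 0.17 and HK1 at -2.14 ± 0.05. Both acetyl-CoA carboxylases were higher in adipose, ACACB at 1.11 ± 0.09 and ACACA at 2.11 ± 0.14. PRKAG3, the muscle gamma subunit of AMP-activated kinase, differed by -13.76 ± 0.23, whereas PRKAG1 stood at -0.75 ± 0.03 with no call. The sources used here do not say how reads shared by such related genes were assigned, and how far that moves the low levels of a form was not tested.

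**Figure D4:**
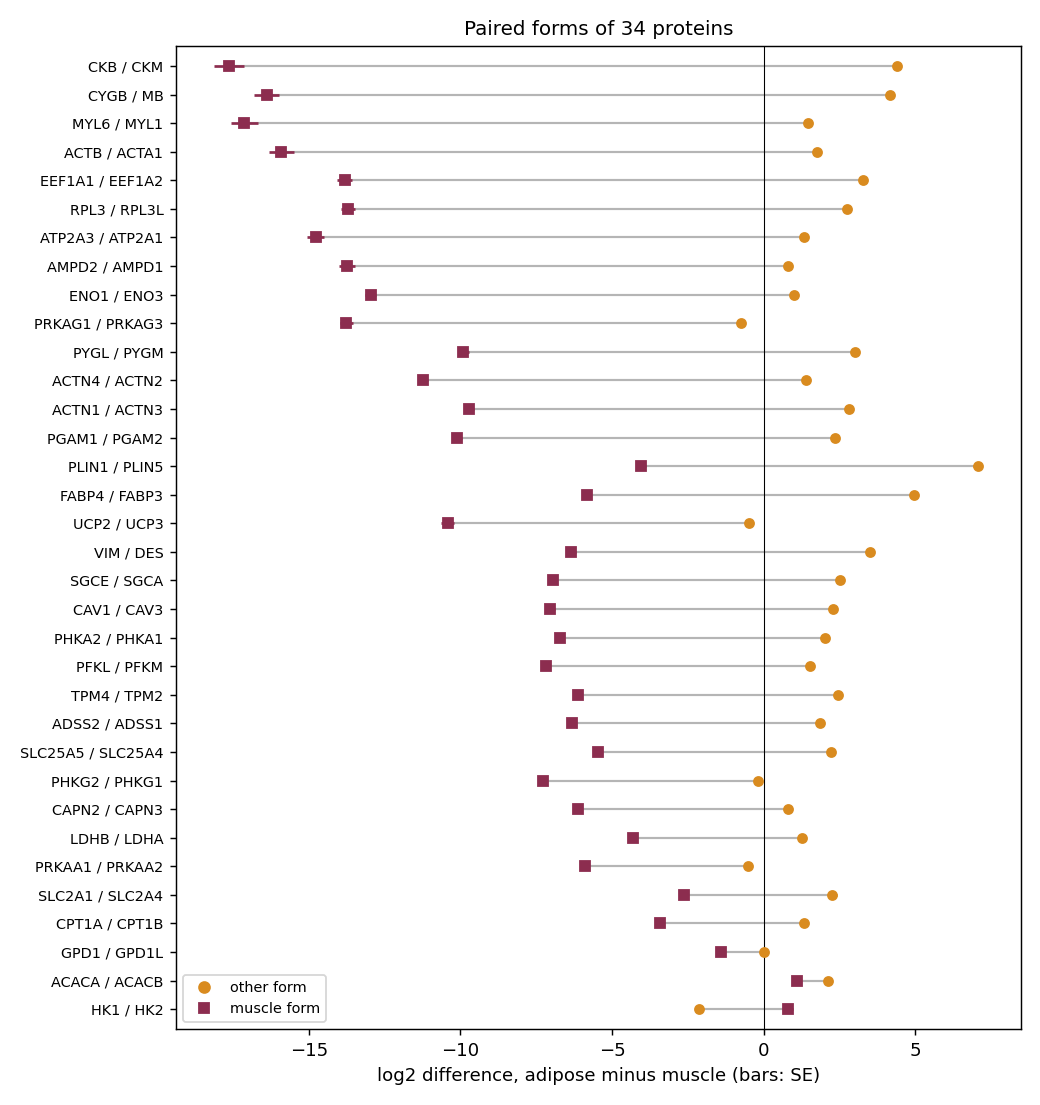
For 34 pairs, a square marks the log2 difference (adipose minus muscle) of the muscle form and a circle that of the other form, with SE bars, ordered by the gap between them. Squares lie left of circles in 33 pairs, from creatine kinase at the top (CKB 4.40, CKM -17.62) to the hexokinases at the bottom, the pair in which they do not.

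Transcription factors of fat cells and of body position also told the tissues apart. Of 18 adipogenic factors 9 were higher in adipose and 5 in muscle, and the muscle count is near the share over all genes. PPARG, the master regulator of fat cell formation, had 58.5 to 499 CPM (median 148) in adipose and 1.66 to 15.2 CPM (median 4.15) in muscle, without overlap, and CEBPA, its partner, differed by 3.95 ± 0.08. NR1H3, the oxysterol receptor LXR alpha, differed by 3.54 ± 0.07. TBX15, a patterning factor that in mice marks some fat depots and also fast fibres, had 0 to 13.7 CPM (median 0.116) in adipose and 120 to 933 CPM (median 502) in muscle, a difference of -11.38 ± 0.21. Its highest adipose library was that of animal 16741, which held the highest myofibre share. SHOX2, another patterning factor of the list, was higher in muscle too, at -2.62 ± 0.15, and RXRA, the common partner of many nuclear receptors, at -2.24 ± 0.14. Of 33 nuclear receptors 10 were higher in adipose and 14 in muscle, with a median of -0.85 that turned to 0.73 under total-count scaling, and the adipose count is near the share over all genes. NR2F1 led on the adipose side, with 40.1 to 196 CPM (median 106) in adipose and 0 to 4.66 CPM (median 1.17) in muscle. ESRRG and PPARA, receptors tied to mitochondria and to fat burning, were higher in muscle at -6.71 ± 0.17 and -2.31 ± 0.06.

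The HOX genes, which record the position of a tissue along the body axis, differed by cluster and by their place in it. Of 31 described 14 were higher in adipose and 10 in muscle. All 8 tested HOXB genes were higher in adipose, with a median of 3.91 and no overlap for 7. HOXB6 had 22.9 to 90.7 CPM (median 37.4) in adipose and 0.345 to 5.84 CPM (median 1.6) in muscle, and HOXB8 had 2.92 to 24.9 CPM (median 8.93) in adipose and read 0 in 55 of 96 muscle libraries. In the HOXA cluster the early groups leaned to adipose, with 3 of 6 genes of groups up to 8 called there (HOXA2, HOXA3 and HOXA5, at 1.16 to 1.99), and 4 of 4 genes of groups 9 to 13 were higher in muscle. HOXA9 had 0.0673 to 8.16 CPM (median 0.354) in adipose and 5.69 to 26.6 CPM (median 14.6) in muscle. HOXA10, HOXA11 and HOXA13 differed by -5.47 ± 0.18, -5.36 ± 0.23 and -7.47 ± 0.13. The HOXC cluster changed side along its length, with HOXC5 higher in adipose (2.01 ± 0.07), HOXC4 and HOXC6 at 0.29 ± 0.06 and -0.23 ± 0.05, and HOXC8 (-3.22 ± 0.08) and HOXC9 (-5.82 ± 0.10) higher in muscle. HOXC10 had the widest difference of the HOX genes, with 0 to 4.58 CPM (median 0.0534) in adipose and 78.1 to 390 CPM (median 218) in muscle, a difference of -11.52 ± 0.18. Its highest adipose library was again that of animal 16741. HOXC11 had at most 0.25 CPM in an adipose library and 0.577 to 9.95 CPM (median 3.53) in muscle. The HOXD cluster did not follow: HOXD10 was higher in adipose (4.96 ± 0.19, medians of 0.626 CPM in adipose and 0 CPM in muscle), HOXD9 as well (1.05 ± 0.10, a call lost in each batch alone, with limma-voom, without the animal block and with DESeq2, at 0.85 to 0.99), and HOXD8 was higher in muscle (-1.40 ± 0.10), which turned to 0.18 with total counts.

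**Figure D5:**
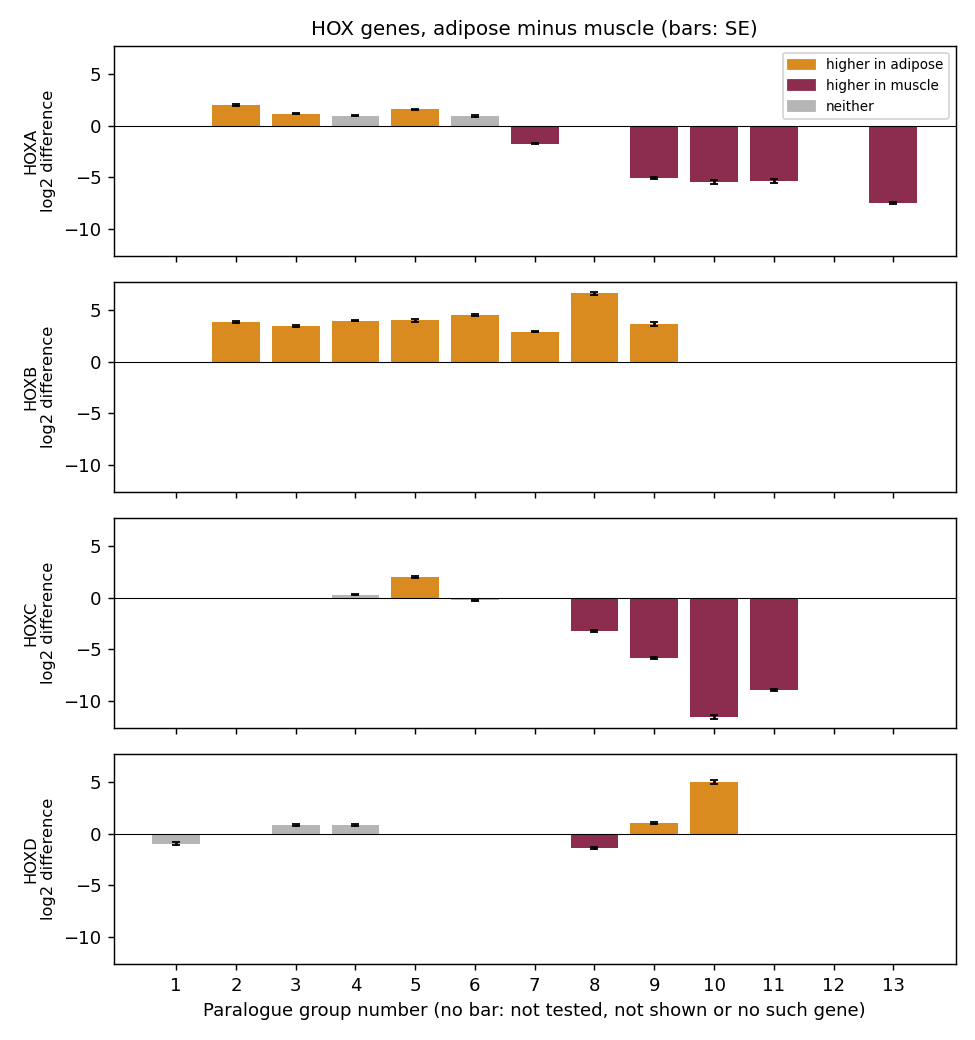
Log2 difference (adipose minus muscle) with SE of 31 HOX genes, 1 panel for each cluster, ordered by paralogue group and coloured by call. HOXB bars all point to adipose, and bars of groups 9 to 13 point to muscle in HOXA and HOXC but to adipose in HOXB and HOXD.

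Genes of connective tissue, vessels and immune cells were mostly higher in adipose. Of 26 collagen and matrix genes 24 were higher in adipose and none in muscle, with a median of 2.81. COL1A1, the main chain of fibrous collagen, had 327 to 6474 CPM (median 1007) in adipose and 5.74 to 249 CPM (median 35.7) in muscle, without overlap. LUM and DCN, proteoglycans that bind collagen fibrils, differed by 4.76 ± 0.10 and 2.97 ± 0.07, and POSTN, a matrix protein of remodelling tissue, by 7.31 ± 0.19. The matrix gene without a call on the muscle side was LAMA2, given above. Of 12 fibroblast and progenitor markers 10 were higher in adipose (median 2.17). C7, a complement protein that stromal cells of fat express, had 101 to 1844 CPM (median 651) in adipose and 0 to 16.7 CPM (median 1.71) in muscle, and THY1 differed by 4.47 ± 0.11. Of 12 endothelial markers 10 were higher in adipose, with a median of 1.39. The difference of 7 of the 12 differed between the batches (6.11% over all genes), with list medians of 1.78 in batch 1 and 1.31 in batch 2. PECAM1 and VWF, general endothelial genes, differed by 1.97 ± 0.06 and 1.50 ± 0.05, and CA4, of capillaries, stood at -0.18 ± 0.11. Lymphatic markers differed more, with 6 of 7 higher in adipose and a median of 3.11, led by the chemokine gene CCL21 (5.18 ± 0.20). Among 10 smooth muscle and pericyte markers 6 were higher in adipose and 2 in muscle, where SYNPO2, which myofibres also make, differed by -6.96 ± 0.19. The muscle count of this list is near the share over all genes.

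All 13 macrophage markers and all 12 T and NK cell markers tested were higher in adipose, with medians of 4.27 and 3.49. C1QB, a complement subunit of resident macrophages, had 12.7 to 531 CPM (median 113) in adipose and 0.71 to 13.9 CPM (median 4.21) in muscle. CSF1R, the macrophage growth factor receptor, differed by 3.68 ± 0.11, and CD4 by 4.13 ± 0.14. JCHAIN, which joins secreted antibodies in plasma cells, had 2.66 to 2651 CPM (median 113) in adipose and 0.107 to 14.2 CPM (median 1.72) in muscle. CPA3, of mast cells, differed by 4.97 ± 0.15. Of 6 neutrophil markers 5 were higher in adipose, and MPO, of neutrophil granules, was higher in muscle at -5.11 ± 0.15, with medians of 0.083 CPM in adipose and 3.65 CPM in muscle. Of 14 complement genes 11 were higher in adipose (median 3.93), where C3, the central component, had 451 to 4725 CPM (median 1550) and muscle had 0.807 to 326 CPM (median 6.1). Antigen presentation genes leaned the same way, 5 of the 7 tested, with B2M at 1.79 ± 0.05 and TAPBP at 2.28 ± 0.05. The list has 17 genes, and none of its HLA genes is in the deposited counts. B and plasma cell markers (4 of 6) and mast cell markers (3 of 3) were called on the adipose side as well. Summed red cell markers, a sign of blood in a biopsy, took a median of 0.0848% of counts in adipose and 0.00941% in muscle. These shares are not scaled by TMM, which narrows the gap. The 2 red cell markers tested had a median difference of 1.42 under TMM and 3.02 under total counts. HBB, a haemoglobin chain, had 58.2, 475 and 4199 CPM (TMM-scaled) in adipose and 5.36, 165 and 4956 CPM in muscle (lowest, median and highest). The part of blood in the immune differences was not tested.

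Nerve and muscle stem cell genes were divided. Of 8 Schwann cell and nerve markers 5 were higher in adipose and 2 in muscle, with S100B, which adipocytes also make, at 6.94 ± 0.19 and MBP, of myelin, at -3.76 ± 0.10. Of 6 satellite cell markers 2 were higher in adipose and 3 in muscle, with DLK1, also a preadipocyte gene, at 5.97 ± 0.22 and CDH15, the cadherin of muscle precursors, at -10.97 ± 0.18. PAX7, of the same list, was too low to be tested. The muscle count of the nerve list and the adipose count of the satellite cell list are near the shares over all genes. Hepatocyte markers were measured as a sign of liver RNA, and of the 4 tested 3 were higher in adipose and 1 in muscle. Their median difference was 2.14 in batch 2 and -0.15 in batch 1.

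Of the 54 lists, the mesothelial markers had the largest median difference towards adipose. Mesothelium is the epithelium that covers organs and fat inside the body cavities. All 9 mesothelial markers tested were higher in adipose, with a median of 9.39, and their sum took 0.00366% to 0.407% of the counts of adipose libraries (median 0.102%) and at most 0.00103% in muscle. UPK3B, a membrane protein of this epithelium, had 0.332 to 513 CPM (median 155) in adipose and 0 to 1.76 CPM (median 0) in muscle, where 73 of 96 libraries read 0. WT1, a transcription factor of mesothelium and, in mice, of visceral fat progenitors, had 7.25 to 277 CPM (median 108) in adipose and 0 to 0.916 CPM (median 0) in muscle, without overlap. KRT19 and KRT8, epithelial keratins, differed by 9.33 ± 0.18 and 9.64 ± 0.22, and BNC1 by 8.92 ± 0.14. Every adipose library had at least 1 count of UPK3B, WT1, KRT8 and KRT19, and the summed share of the list was 111 times as high in the highest adipose library as in the lowest. The labels used here do not name the depot.

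A gene counted as detected in one tissue only when its median was at least 1 CPM there and at most 0.05 CPM in the other. By that rule 309 genes (0.904% of 34178) were detected in adipose only and 201 (0.588%) in muscle only. Of the adipose genes 184 carry a symbol, and the 6 with the highest CPM, which depends on transcript length too, were UPK3B, WT1, KRT8, CRB2, CGN and DEFB1. CRB2 and CGN, genes of epithelial polarity and tight junctions, had medians of 50.5 CPM in adipose and 0 CPM in muscle and 39.6 CPM in adipose and 0 CPM in muscle. Of the muscle genes 112 carry a symbol, and the corresponding 6 were MYL1, NRAP, MYOT, MYPN, CACNA1S and XIRP1, all of the contractile or coupling apparatus. The libraries of the tissues did not overlap for 34 of the 309 adipose genes and for 105 of the 201 muscle genes. Medians over 96 animals rest mostly on batch 2 (80 animals). In batch 1 (16 animals) mean within-animal differences were smaller in size. They were -11.46 against -17.31 in batch 2 for MYL1, -10.97 against -15.46 for NRAP and 8.045 against 10.06 for UPK3B. Whether a gene passes the rule within batch 1 alone was not tested.

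Protein turnover differed on the muscle side. Of 14 muscle protein breakdown genes 11 were higher in muscle (median -6.89), among them KLHL40 (-12.44 ± 0.22), which stabilises thin filament proteins, and the ubiquitin ligase adaptors ASB15 (-10.74 ± 0.20) and FBXO40 (-9.05 ± 0.17). CAPN3, the muscle calpain, had 11.4 to 81.5 CPM (median 22.7) in adipose and 737 to 2793 CPM (median 1629) in muscle. Of 23 proteasome genes none was higher in adipose and 22 were higher in muscle, with a median of -1.88 and no overlap for 14, while total-count scaling left a median of -0.30 and 2 calls in muscle. PSMB6, a catalytic subunit, had 37.3 to 90.3 CPM (median 51.7) in adipose and 242 to 575 CPM (median 369) in muscle, and PSMC3, an ATPase of the cap, differed by -2.66 ± 0.03. PSMB8 and PSMB9, the interferon-inducible counterparts of catalytic subunits, were higher in adipose, at 2.19 ± 0.09 and 1.99 ± 0.09. All 7 small heat shock protein genes were higher in muscle (median -4.22), from HSPB7 (-8.82 ± 0.12) to HSPB6 (-2.26 ± 0.08), and CRYAB, the chaperone of the Z disc, had 12.7 to 2317 CPM (median 76.5) in adipose and 629 to 4069 CPM (median 2009) in muscle.

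Genes for general functions moved less, with exceptions. Of 33 cytosolic ribosomal protein genes 29 had no call, 1 was higher in adipose (RPL3) and 3 in muscle (RPL3L, RPS2 and RPLP1), and their median of -0.21 turned to 1.36 under total-count scaling. RPS2, at -1.41 ± 0.17 over all animals, stood at -1.54 in batch 2 and 0.47 in batch 1 (limma, adjusted p = 0.00973 for the difference between batches). Of 18 clock genes 11 had no call and 7 were higher in muscle, with a median of -0.78 that turned to 0.80 under total-count scaling. CRY2, a repressor of the clock, was higher in muscle at -1.98 ± 0.08, and CLOCK stood at -0.25 ± 0.04. Genes often used as references for normalisation were not level: of 14, 5 were higher in adipose, 6 in muscle and 3 neither, with a median of -0.69 that turned to 0.89 under total-count scaling. Their adipose count is near the share over all genes. GAPDH, the glycolytic enzyme, had 1.32 to 568 CPM (median 249) in adipose and 5.63 to 27678 CPM (median 10693) in muscle, a difference of -5.39 ± 0.16. Its lowest libraries lie far below the median in both tissues, and the reason was not tested. ACTB and PPIA were higher in adipose, at 1.74 ± 0.06 and 2.33 ± 0.08, and TFRC, the transferrin receptor gene, higher in muscle, at -2.43 ± 0.07. TBP, a general transcription factor, stood at 0.28 ± 0.03. Among genes of at least 100 CPM in both tissues the smallest differences were those of the splicing factor gene SRSF1, with medians of 124 CPM in adipose and 119 CPM in muscle, GPD1, TMBIM6, SNN, HNRNPD, RPL10A, RPL37 and DDX17, all between -0.0122 and 0.00844 under TMM scaling and between 1.57 and 1.59 under total counts. A small difference over all animals can hide wide ones within animals, which ran from -5.49 to 6.08 for RPL10A and from -2.56 to 2.49 for GPD1. The mean for RPL10A was 0.79 in batch 1 and -0.07 in batch 2.

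Animals differed in how far their tissues stood apart. The SD over animals of the within-animal difference had a median of 0.67 over all genes, and the 8 most variable genes of at least 10 CPM in both tissues on average were SCD, MYH1, CKM, TF, GDA, MYH2, MYBPC1 and MB. The 5 muscle genes among them had adipose medians of only 0.0674 to 0.156 CPM and passed 10 CPM through the adipose library of animal 16741. Without that animal, left out after seeing the data, their adipose means were 1.21 to 2.92 CPM, and SCD, TF and GDA led the ranking. TF, which encodes the iron carrier transferrin, had 0.842 to 1097 CPM (median 28.3) in adipose and 0 to 361 CPM (median 2.32) in muscle, and its within-animal difference ran from -2.61 to 8.90. The mean difference of TF was 1.365 in batch 1 and 3.872 in batch 2. Its muscle mean of 11.81 CPM had an SD of 38.46, and the part of liver RNA in single muscle libraries was not tested. GDA, guanine deaminase, had 0.0518 to 606 CPM (median 144) in adipose and 1.98 to 82 CPM (median 23.5) in muscle, and was higher in adipose in 85 of 96 animals.

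Most called genes went the same way in the 2 batches. The labels state 16 animals in batch 1 and do not say which; along the first axis of the animals' mean profiles 16 animals stood apart from the other 80, and these are called batch 1 here. Of 9152 called genes 9112 had the same sign in both batches, which is partly fixed because the calls come from the same animals. The batches were also fitted apart. Of the genes higher in adipose, 89.3% of the batch 1 calls and 77.3% of the batch 2 calls were also called in the other batch. For genes higher in muscle these shares were 89.9% and 86.1%, and 8 genes were called opposite ways. The difference itself differed between batches for 983 of 16101 genes (6.11%, limma on the within-animal differences), higher in batch 2 for 272 and lower for 711, and for 156 of them the signs were opposite. All 12 muscle genes with the largest differences are among them: their mean within-animal differences were -18.38 to -14.75 in batch 2 and -11.59 to -10.64 in batch 1. The counts of these 12 genes in an animal's adipose library, as a percent of their share in its muscle library, had a median of 0.00156% in batch 2 (0.00041% to 0.014%) and 0.0952% in batch 1 (0.0385% to 11.1%, or at most 0.134% without animal 16741). The size of differences this large thus depended on the batch, and their direction was the same in all 96 animals.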

How the data were processed

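Values start from the authors' deposited table of counts per gene for 570 libraries (34178 genes, raw whole-number counts, not normalised). Per the submitters' processing notes STAR 2.7.7a, FastQC and featureCounts were used. No source used here names the genome build, the annotation or the strand setting of counting, and overlapping, antisense and near-identical genes are therefore uncertain. The 961 columns of other libraries were not used, and no pair of libraries was identical. Per the labels' protocols, 2 kits were used, TruSeq RNA v2 with single-end reads in batch 1 and TruSeq stranded mRNA with paired-end reads in batch 2, both of 50 bases.

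Genes were kept with edgeR 4.0.16 (R 4.3.3) filterByExpr at a minimum count of 10, scaled by TMM and tested with glmQLFTest, adipose against muscle with the animal as a block and 1 common dispersion, estimated on a systematic sample of genes. P-values were adjusted by Benjamini-Hochberg over 16101 genes. The pairing follows from the animal: deviations from the tissue means correlated at a median of 0.212 within animals and -0.00377 between animals of a batch, and at over 0.1 in 92 of 96 animals. Batches were compared with limma 3.58.1 on within-animal differences of log2 CPM (prior count 2). The edgeR fit and the batch comparison were also run on simulated counts with known differences. Those counts were not scaled by TMM and held smaller differences than the largest here, so neither the scaling nor such differences were tested. Alternatives were RLE or total-count scaling, limma-voom, no animal block, DESeq2 1.42.0, other filters, each batch alone, the 588-library table and leaving out animals. The 54 gene lists, 38 pairs and the rule were chosen with earlier results of these data known. The rule names the 12 largest differences in each direction (at least 50 CPM in the higher tissue), in each list up to 4 of the largest, 3 against the majority and 3 of the smallest, both genes of a pair, the 8 most variable, the 6 highest of those detected in one tissue only, every HOX gene and the 8 smallest differences. The text gives part of them, and some genes are not reported here. Precision is set by depth and by 96 animals, and genes with few reads in one tissue are the least precise.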

Additional observations from a re-analysis of the deposited data

Results flagged for a closer look

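The tissue difference differed between the library batches for 983 of 16101 genes (limma, adjusted p at most 0.05), and 350 of them differed by at least 1 on the log2 scale. Muscle genes with almost no reads in adipose are prominent among them, with mean within-animal differences of -18.38 in batch 2 and -11.59 in batch 1 for MYH1 (adjusted p = 2.24e-26) and -18.06 and -11.41 for CKM. On the adipose side UPK3B (10.06 in batch 2, 8.05 in batch 1), WT1 (9.54 and 7.67), LEP (8.79 and 6.53) and C3 (8.03 and 5.78) also lay nearer to 0 in batch 1. In 10 genes the signs were opposite and the difference was at least 1 in size in both batches. The batches differ in kit, read layout, instrument and animals, which cannot be told apart. Median library totals were also lower in batch 1 than in batch 2, in adipose and in muscle. The part of sequencing depth in these differences was not tested.

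Of the muscle libraries at 0 years that the authors left out of their kept table, that of animal 15545 held 1.92% adipocyte markers and 0.0451% myofibre markers, against 0.143% and 19.9% at the median of the 96 muscle libraries used. The other, of animal 12218, held 0.0686% and 20.9%. Neither enters the values above, apart from the alternative that adds both.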

How the results depend on the processing

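The counts of 5421 genes higher in adipose and 3731 higher in muscle stayed within 1.5 times under RLE scaling, limma-voom, a filter at a mean of 1 CPM, either batch alone, the 588-library table and both sets of animals left out. Without the animal block edgeR gave 5221 and 3862 and DESeq2 5625 and 3463, so ignoring the pairing changed neither count beyond that factor. Total counts gave 10943 and 1115. With no filter 13041 genes were higher in muscle (6688 in adipose), of which 9469 were among 14172 genes too low for the main test, where the voom value of a gene at 0 follows the scaled library size. The 309 genes detected in adipose only became 581 with 0.5 in place of 1 CPM, 589 after thinning to the smallest total and 639 under total counts. Of 221 genes named and tested, none changed sign with a call in either fit under the alternatives run other than total counts, but 13 genes with no call, at most 0.18 in size, changed sign under at least 1 of them. Calls were lost for HOXD9 (0.85 to 0.99 in 5 fits), ENO1 (0.83 in batch 1 and 0.98 in the 588-library table), HBB (0.83 without the animal block and 0.96 with DESeq2), ME1 (-0.45 without the block, -0.30 with DESeq2 and -0.89 with no filter) and RPS2 (-0.10 with limma-voom in batch 1, where the mean within-animal difference was 0.47). Under total counts these changed sign with a call in one of the fits: ACAA2 1.55, ASPH 1.23, CA4 1.40, CHRNE 1.60, CLOCK 1.33, DDX17 1.57, FOXO1 1.58, G0S2 1.54, GPD1 1.58, HNRNPD 1.57, HOXC6 1.34, HOXD8 0.18, IDH3A 1.18, ME1 0.35, MEF2A 0.05, MGLL 1.30, NDUFB8 0.19, RPL10A 1.57, RPLP1 0.24, RPS2 0.17, SNN 1.58, SUCLG2 1.26, TMBIM6 1.58 and VLDLR 0.09. The batch comparison could not be run without the 23 animals in doubt, which include all 16 of batch 1, and gave 745 genes under total counts and 1070 with a prior count of 0.5. Depth limits the genes at or near 0 in one tissue, whose differences are the least precise.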
